A study of Mus musculus with 19 samples.

Results

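The residual mRNA of 10 oocyte genes was followed in single blastocysts with and without UPF2: *Zp2*, *Zp3*, *Gdf9*, *Bmp15*, *Nlrp5*, *Zar1*, *Figla*, *Mos*, *Obox1* and *Obox5*. These 10 genes were taken by name, as transcripts that the oocyte makes for itself and for the egg, from the 41388 genes of the count table. The study sequenced mRNA of 19 single whole blastocysts collected at E3.25, of which 8 were *Upf2*-null (*Upf2* -/-) and 11 were control (*Upf2* +/+) littermates. The question asked here was how much of each oocyte transcript was left in each embryo, and whether the amount differed between the genotypes. UPF2 is a core factor of nonsense-mediated decay (NMD), which degrades mRNAs with a premature or otherwise aberrant stop codon.

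All embryos came from matings of *Upf2*-heterozygous mice on a C57BL/6 background, so the oocyte of every embryo, null or control, was made in a heterozygous mother. The null allele was made by crossing floxed mice with a Cre line driven by the *E2a* promoter, and it lacks exons 2 and 3. According to the study's methods a truncated protein without NMD activity remains. Mothers were 4 to 8 weeks old and were superovulated with eCG and hCG. Zygotes were freed of cumulus cells with hyaluronidase, cultured in M16 medium and taken as early blastocysts 90 to 94 h after hCG. The genotype of each embryo was read from its own cDNA.

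During its growth the oocyte transcribes and stores a large stock of mRNA, and it stops transcribing before ovulation. After fertilization most of this stock is degraded while the embryonic genome is switched on, so that oocyte genes are usually near silent by the blastocyst stage. Clearance runs through shortening of poly(A) tails and through uridylation and decapping, and NMD is a separate route of decay that acts on translated mRNAs.

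The list covers several steps of oocyte biology. *Zp2* and *Zp3* encode glycoproteins of the zona pellucida, the coat of the egg. *Gdf9* and *Bmp15* encode growth factors that the oocyte secretes to the surrounding granulosa cells. *Nlrp5* (Mater) encodes a subunit of the subcortical maternal complex, a protein complex beneath the egg surface that early embryos need for cleavage. *Zar1* encodes an RNA-binding protein of maternal mRNA storage, and *Mos* the kinase that holds the egg arrested in meiosis. *Figla* encodes the basic helix-loop-helix factor that switches on the zona genes, and *Obox1* and *Obox5* encode homeobox proteins of a family expressed in oocytes and early embryos.

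The genes lie at separate loci except for the *Obox* pair, and coordinates are those of GRCm38 with GENCODE M21 annotation. *Zp3* is at chr5:135980099-135988624 (+), *Zp2* at chr7:120126772-120145291 (-), *Gdf9* at chr11:53431023-53437904 (+) and *Bmp15* at chrX:6314107-6320721 (-). *Nlrp5* is at chr7:23385889-23441922 (+), *Zar1* at chr5:72576806-72581254 (-), *Mos* at chr4:3870657-3872105 (-) and *Figla* at chr6:86016171-86020996 (+). *Obox1* is annotated at chr7:15388948-15556866 (+), a span that covers its neighbour *Obox2*, and *Obox5* at chr7:15750131-15759800 (+). All 10 are protein-coding genes, and the counts cover all exons of each gene.

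The promoters of 3 genes are shown because they carry the patterns to which the counts refer. *Zp3* is the oocyte gene that was found in every embryo. *Obox1* and *Obox5* have promoters that are near-copies, and both peaked in the same embryo. RefSeq promoters on GRCm38.p6 run from 250 bases before to 50 bases after the transcript start, and 7 of the 10 genes matched an entry. The capitals mark CANNTG, the E-box read by basic helix-loop-helix factors such as FIGLA, in the *Zp3* promoter, and TATATAA in the *Obox* promoters.
*Zp3*, chr5:135979855-135980154 (+): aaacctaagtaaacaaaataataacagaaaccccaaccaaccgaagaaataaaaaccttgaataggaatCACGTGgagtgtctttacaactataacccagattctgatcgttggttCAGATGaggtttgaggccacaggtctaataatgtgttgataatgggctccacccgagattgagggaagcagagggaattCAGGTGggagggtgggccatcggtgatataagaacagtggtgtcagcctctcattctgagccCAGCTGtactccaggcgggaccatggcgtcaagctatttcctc
*Obox1*, chr7:15547007-15547306 (+): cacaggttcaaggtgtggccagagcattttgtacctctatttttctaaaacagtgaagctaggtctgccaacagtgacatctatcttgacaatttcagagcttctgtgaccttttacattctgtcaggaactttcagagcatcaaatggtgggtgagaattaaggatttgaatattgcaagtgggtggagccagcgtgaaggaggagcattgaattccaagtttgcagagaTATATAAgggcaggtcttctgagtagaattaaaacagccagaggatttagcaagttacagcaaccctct
*Obox5*, chr7:15750120-15750419 (+): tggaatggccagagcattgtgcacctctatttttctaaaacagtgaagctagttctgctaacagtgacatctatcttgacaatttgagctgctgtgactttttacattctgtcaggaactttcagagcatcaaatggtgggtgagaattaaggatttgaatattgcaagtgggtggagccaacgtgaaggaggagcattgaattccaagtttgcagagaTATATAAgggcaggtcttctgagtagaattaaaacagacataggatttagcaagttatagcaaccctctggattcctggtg

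The *Zp3* promoter held 4 matches to CANNTG, which is the same search on both strands, at 181, 134 and 55 bases before the transcript start and just after it. Such a match is common, since 72.3% of the 32851 mouse promoters of this length hold at least 1. TATATAA, searched on both strands, was found in the promoters of *Obox1* and *Obox5* only among the 7 genes with an entry, 19 and 31 bases before the annotated start, and in 3.24% of all promoters. The shorter TATAA lies inside TATATAA and also stands 29 and 160 bases before the *Zp3* start, and 24.9% of all promoters hold it. The *Obox1* and *Obox5* promoters align with 275 of 290 columns identical and 2 gaps (94.8%). The *Obox1* and *Obox2* promoters are identical over the 203 bases they can be aligned on.

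The 3′ ends matter for these counts because the cDNA was primed from poly(A) tails, and because stored oocyte mRNAs are lengthened or shortened at their tails. The ends of 4 transcripts are shown, each as the 30 bases that close with the polyadenylation signal. Capitals mark that signal (AATAAA or ATTAAA) and a cytoplasmic polyadenylation element (TTTTAT or TTTTAAT) where 1 falls within the window.
*Zp3*, chr5:135988583-135988612 (+): cttcctaccttgtatcccttccgcAATAAA
*Gdf9*, chr11:53437858-53437887 (+): tgctgtggTTTTATgtgacggaagAATAAA
*Mos*, chr4:3870673-3870702 (-): taccactagggcatatttttaggaAATAAA
*Figla*, chr6:86020946-86020975 (+): tgagtatttttcatgtaaaatataATTAAA

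Each of the 10 genes has a signal hexamer in the last 40 bases of its first-listed GENCODE coding transcript, against 48.7% of 58725 protein-coding transcripts, many of which are annotated without a full 3′ end. TTTTAT or TTTTAAT, searched on the transcript strand in the last 120 bases, was found in 2 of the 10, *Gdf9* and *Obox1*, and in 14.3% of all. In *Gdf9* the element starts 16 bases before the signal. GENCODE annotates an NMD isoform for 3 of the 10 genes, 1 each for *Zp2* and *Zp3* and 2 for *Nlrp5*, and for 26.6% of the 14299 protein-coding genes tested. The transcript models that the study merged from all embryos add 3 new models to the 2 annotated ones of *Zp3* and 2 to the 3 of *Obox5*. They add 2 to the shared *Obox1* and *Obox2* locus and none to the other 7 genes. Counts were made per gene, so isoforms were not told apart.

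Library totals ran from 4056072 to 5993745 counts. A count of 0 was taken here to allow for up to 3 counts, which in a single embryo correspond to 0.519 to 0.771 CPM. CPM is the usual unit in which counts are scaled to a common library total, here also corrected for library composition. Counts over the whole *Upf2* gene were 90.8 ± 21.3 CPM (SD, n = 8) in null and 57.7 ± 16.5 CPM (SD, n = 11) in control embryos (adjusted p = 0.185, edgeR). They include the exons outside the deletion and so do not check the labels. Blastocyst markers were present throughout, *Krt18* at 411 ± 46.6 CPM in null and 369.5 ± 76.8 CPM in control embryos and *Krt8* at 343 ± 76.5 and 325 ± 70.5 CPM. Control embryos 2, 4 and 11 stood apart in *Obox6*, a homeobox gene of the early embryo, at 316 to 395 CPM against 50.3 to 184 CPM in the other 16. Of the epiblast factors *Sox2* was at 0 to 1.80 CPM against 0.871 to 22.3 CPM, ranges that overlap. *Nanog* was not low in these 3, at 200 to 327 CPM against 124 to 299 CPM. *Klf4* was highest in these 3, with 229 to 258 counts against 3 to 177. Of the other blastocyst markers *Eomes* was lowest in them, with 19 to 115 counts against 121 to 738. *Gata3* had 336 to 854 counts against 825 to 1573, and the counts of *Cdx2* and *Gata6* overlapped. Of 17 cumulus and granulosa genes 3, *Fshr*, *Cyp19a1* and *Lhcgr*, had 0 counts in every embryo. *Star* was found in 14 embryos, at 4.139 ± 4.635 CPM in null and 0.957 ± 1.365 CPM in control embryos (adjusted p = 0.454, edgeR). The summed level of all 17 cumulus and granulosa genes was 98.6 to 351 CPM in null and 113 to 334 CPM in control embryos, and most of it was *Serpine2* and *Amhr2*. Of these 17 genes 5 were tested and none passed by edgeR, DESeq2 or limma voom. Of 13 blastocyst markers none passed by edgeR or limma voom and 1, *Nanog*, by DESeq2. Each value is an average over a whole embryo, so fewer cells with a transcript and less of it per cell cannot be told apart, nor can stored and newly made transcripts.

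The 10 oocyte genes together held 2970 of the 94376314 counts of all embryos. *Zp3* alone gave 1636 of them (55.1%), and *Obox5* gave 439 (14.8%), of which 432 came from 1 embryo. Of the 190 combinations of gene and embryo 80 had at least 1 count, 28 of 80 in null embryos (35%) and 52 of 110 in control embryos (47.3%). Thus most of the 10 transcripts had no count in most embryos, and the counts that were found were unevenly spread. With at least 3 counts required, 21 of 80 (26.2%) and 37 of 110 (33.6%) remained. After thinning to the smallest library 27.4 and 49.6 combinations would be expected.

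A null embryo held a count of 2 to 5 of the 10 genes (median 4), and a control embryo of 2 to 7 (median 5). Only *Zp3* was found in all 19 embryos, and 7 of the 10 genes were found in fewer than 10. No embryo held all 10. The 4777 genes with a mean of 3 to 30 counts, a range that holds 7 of the 10, were found in a median of 15 embryos (quartiles 11 and 18). For those genes the highest embryo gave a median of 21.2% of all counts. For 5 of the oocyte genes more than 50% of the counts came from a single embryo: *Nlrp5*, *Zar1*, *Mos*, *Obox1* and *Obox5*. Control embryo 2 was the highest of all embryos for *Mos*, *Obox1* and *Obox5*, and also for *Figla* (28.1% of its counts).

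**Figure D1:**
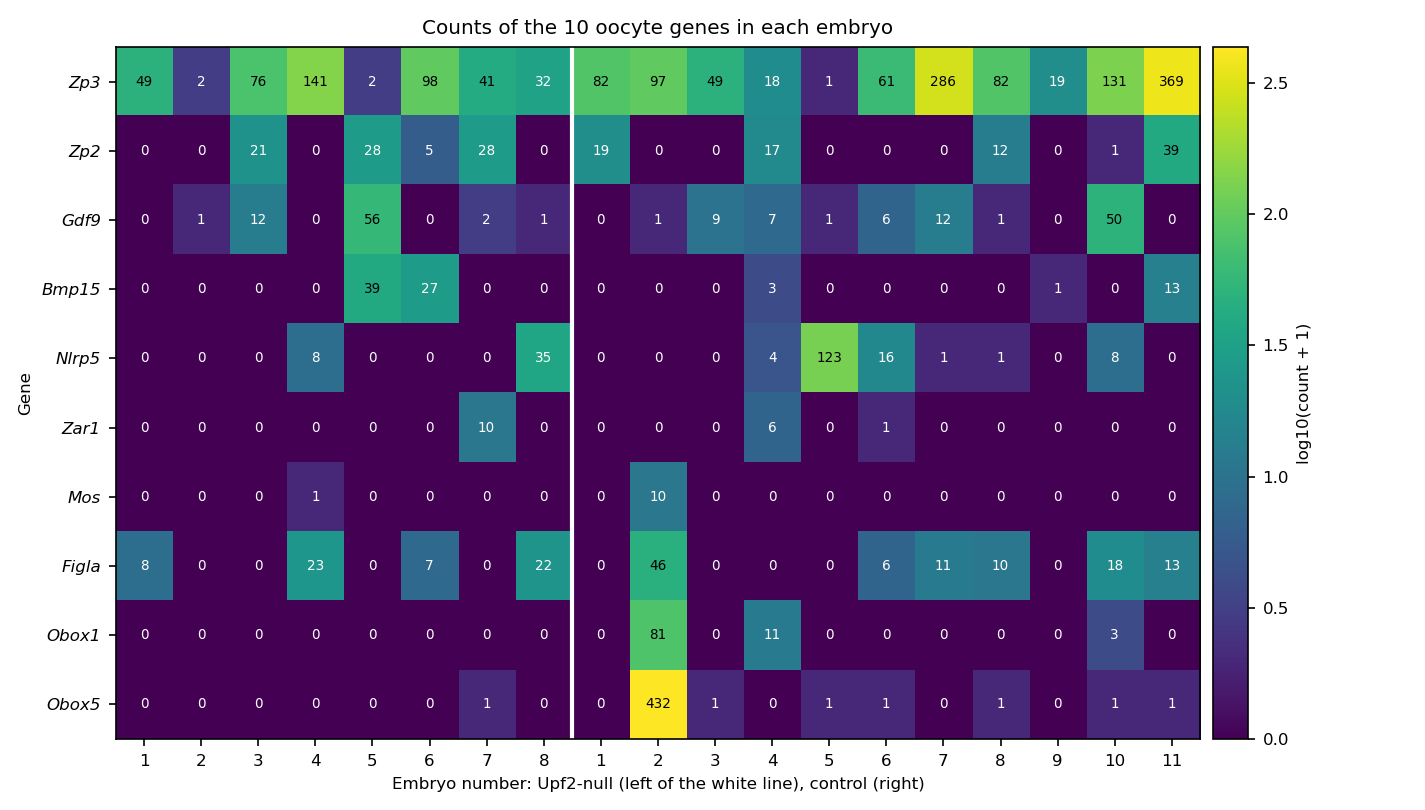
Raw counts of the 10 oocyte genes (rows) in each of 8 *Upf2*-null and 11 control embryos (columns), with colour for log10(count + 1). *Zp3* has a count in all 19 embryos, while most cells of the other rows are 0 and the highest value, 432, is *Obox5* in control embryo 2.

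Per kilobase of exon the levels followed *Zp3* at 12.79 ± 12.97 CPM per kb (SD, n = 19), *Obox5* at 2.77 ± 11.9, *Figla* at 2.29 ± 3.51, *Gdf9* at 0.799 ± 1.55 and *Obox1* at 0.657 ± 2.51. Then came *Zp2* at 0.632 ± 0.868, *Nlrp5* at 0.475 ± 1.31, *Bmp15* at 0.289 ± 0.712, *Mos* at 0.101 ± 0.407 and *Zar1* at 0.0530 ± 0.152 CPM per kb. In every one of them the SD over embryos exceeded the mean, so no neighbours in this order differed beyond their spread. Among all 17137 genes tested *Zp3* stood at percentile 68.0 of this level, *Figla* at 40.9 and *Zar1* at 2.32, and 9 of the 10 lay below the middle.

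None of the 10 genes differed between the genotypes at an adjusted p under 0.1 by edgeR's quasi-likelihood test, where 33 of 17137 genes did (0.193%). DESeq2 also called none of the 4 for which it gives an adjusted p, against 1.20% of its genes, and limma voom called none of the 10, against 0.654%. At an unadjusted p under 0.05 edgeR had 2 of the 10 lower in null embryos (*Obox1* and *Obox5*), where 7.38% of all genes were lower. None was higher, where 5.15% were. *Obox1* and *Obox5* reached 10 counts only in control embryos, so their direction was fixed in advance. DESeq2 and limma voom had 0 of the 10 lower at that threshold (*Obox1* p = 0.349 and 0.233, *Obox5* p = 0.569 and 0.183). DESeq2 ran with its default replacement of outlying counts and fitted *Obox5* at -1.25, against -7.67 by edgeR. Without control embryo 2 edgeR had 1 of the 8 genes still tested lower. Without control embryos 2 and 4 it had 0 of 7, and neither *Obox1* nor *Obox5* then had the counts to be tested. The CPM ranges of the 2 genotypes overlapped for all 10, as they did for all but 0.0934% of genes. The median fitted log2 fold change of the 10 was -0.60, beside -0.02 over all genes tested. It includes *Obox1*, *Obox5* and *Mos*, which reached 10 counts only in control embryos, and *Zar1*, which did so only in a null embryo. The median is therefore not read as a result about the 10. The standard errors of the 7 genes with more than 3 counts in each genotype ran from 0.76 to 1.53 on the log2 scale.

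*Zp3* was the residual oocyte transcript with the most counts. Null embryos had 2 to 141 counts (median 45) and control embryos 1 to 369 (median 82), or 11.4 ± 10.4 CPM (SD, n = 8) and 20.9 ± 20.3 CPM (SD, n = 11). The fitted log2 fold change, null over control, was -0.87 ± 0.76 (SE, adjusted p = 0.772, edgeR). Control embryos 11 and 7 were the highest at 369 and 286 counts, null embryo 4 came next at 141, and null embryos 2 and 5 and control embryo 5 had only 1 or 2 counts. Thus both genotypes held embryos almost without *Zp3* mRNA, and the groups overlapped nearly throughout.

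*Zp2*, whose protein forms the coat filaments together with ZP3, was found in 4 of 8 null and 5 of 11 control embryos. The counts ran from 0 to 28 (median 2.5) in null and from 0 to 39 (median 0) in control embryos, or 1.98 ± 2.52 and 1.53 ± 2.35 CPM (log2 fold change 0.36 ± 1.29, adjusted p = 0.973, edgeR). Null embryo 5 had 28 *Zp2* counts and only 2 of *Zp3*, whereas control embryo 7 had 286 of *Zp3* and 0 of *Zp2*. Control embryo 11 was the highest for both coat genes, and null embryos 3 and 7 and control embryos 1, 4 and 8 held 12 or more counts of each. The remaining coat gene, *Zp1*, was found in 5 embryos with 51 counts in all, 6 in null and 45 in control embryos (adjusted p = 0.606, edgeR).

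The growth factors were rarer. *Gdf9* had at least 1 count in 5 of 8 null and 8 of 11 control embryos. Its counts ran from 0 to 56 in null and from 0 to 50 in control embryos, with a median of 1 in each (1.74 ± 3.81 and 1.54 ± 2.77 CPM, log2 fold change 0.17 ± 1.21, adjusted p = 0.989, edgeR). A single embryo of each genotype, null embryo 5 with 56 and control embryo 10 with 50, held most of its 159 counts. Without null embryo 5 the log2 fold change of *Gdf9* was -1.82.

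*Bmp15*, which acts with *Gdf9* on granulosa cells, was found in 2 null and 3 control embryos. Null embryos 5 and 6 had 39 and 27 counts and the other 6 had 0, and control embryos had 0 to 13 (1.704 ± 3.188 and 0.288 ± 0.705 CPM). Its fitted log2 fold change was 2.45 ± 1.44, the highest of the 10 (adjusted p = 0.555, edgeR), but 6 of 8 null and 8 of 11 control embryos had none. Null embryo 5 held the highest count of both growth factors, and null embryo 6 had 27 of *Bmp15* and 0 of *Gdf9*. Of the 4 other secreted oocyte factors examined, 2 had enough counts to be tested. *Oosp1* had 0 counts in all null and 55 in control embryos, from 0 to 22 (adjusted p = 0.236, edgeR). None of the 4 tested secreted factors, *Gdf9* and *Bmp15* included, passed, with 2 fold changes above 0 and 2 below. The 2 below, *Oosp1* and *Oosp3*, reached 10 counts only in control embryos, so their direction was fixed in advance.

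**Figure D2:**
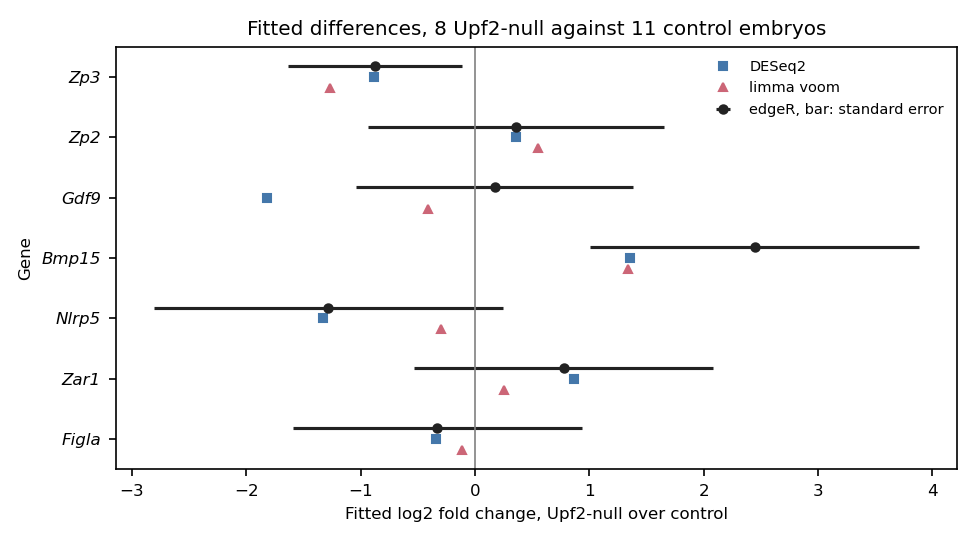
Fitted log2 fold change, *Upf2*-null over control, of the 7 oocyte genes with more than 3 counts in each genotype, by edgeR (points with the standard error), DESeq2 (squares) and limma voom (triangles). The edgeR values lie between -1.28 for *Nlrp5* and 2.45 for *Bmp15*, and *Gdf9* changes sign between the tools.

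*Nlrp5* mRNA was found in 2 of 8 null and 6 of 11 control embryos. Counts ran from 0 to 35 (median 0) in null and from 0 to 123 (median 1) in control embryos, or 1.26 ± 2.92 and 3.06 ± 8.08 CPM (log2 fold change -1.28 ± 1.53, adjusted p = 0.864, edgeR). Control embryo 5, which had 1 count of *Zp3*, held 123 of the 196 *Nlrp5* counts (62.8%). Without it the log2 fold change was 0.93.

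The other subunits of the subcortical maternal complex were found in more embryos than *Nlrp5*, apart from *Nlrp2*. *Khdc3* (Filia) had 746 to 1153 counts and *Ooep* (Floped) 107 to 361 counts in every embryo. Their levels were 98.8 ± 12.5 and 24.1 ± 7.70 CPM per kb (SD, n = 19), against 0.475 ± 1.31 for *Nlrp5*. *Padi6* had 8 to 522 counts, *Nlrp4f* 2 to 429 and *Tle6* 0 to 259, with *Tle6* missing from 1 embryo. *Zbed3* was found in 14 embryos and *Nlrp2* in 2. Of the 8 genes 7 were tested, and none passed: 5 had a fold change below 0 and 2 above, with a median of -0.12. *Padi6* was at 15.3 ± 9.19 CPM in null and 38.2 ± 28.1 CPM in control embryos (log2 fold change -1.32 ± 0.54, adjusted p = 0.295, edgeR). *Khdc3* was at 193 ± 27.2 and 209.5 ± 23.3 CPM (-0.12 ± 0.09, adjusted p = 0.694, edgeR), and *Ooep* at 54.4 ± 20.8 and 49.5 ± 13.2 CPM (0.14 ± 0.24, adjusted p = 0.925, edgeR). PCR duplicates had been removed from these data, and no gene had more than 4884 counts in an embryo, and the effect of this on levels compared between genes was not tested.

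**Figure D3:**
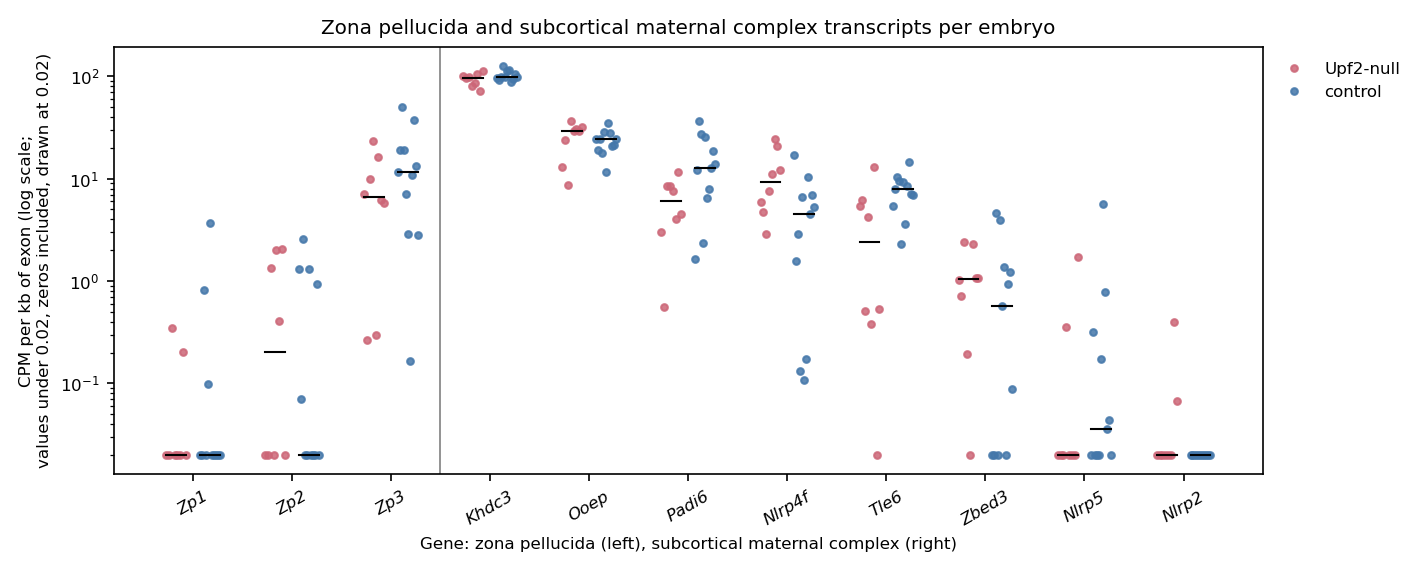
Level per kilobase of exon (CPM per kb, log axis, values under 0.02 drawn at 0.02) of 3 zona pellucida genes and 8 genes of the subcortical maternal complex in each *Upf2*-null and control embryo, with black lines at the group medians. *Khdc3* and *Ooep* are at a high and even level in all embryos, *Zp3* varies widely in both genotypes, and *Nlrp5* and *Zp2* are at 0 in most.

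*Zar1* and *Mos* were the rarest of the 10, with 17 and 11 counts over all embryos. *Zar1* was found in null embryo 7 (10 counts) and in control embryos 4 and 6 (6 and 1 counts), and the other 16 embryos had 0 (log2 fold change 0.77 ± 1.31, adjusted p = 0.917, edgeR). *Mos* had 10 counts in control embryo 2, 1 count in null embryo 4 and 0 in the other 17, a ratio of null to control counts per library of 0.136 with a 95% exact binomial interval of 0.00312 to 0.953 that covers counting error only. Its adjusted p was 0.539 (edgeR). Both are thus at or under the limit of detection in nearly all embryos of both genotypes.

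The other RNA-binding and storage genes of the oocyte were in part more widely found. Of 10 such genes, *Zar1* and *Mos* included, 9 were tested and none passed, with 4 fold changes above 0 and 5 below and a median of -0.04. Some of them, *Zar1* and *Mos* among them, entered the test only through embryos of a single genotype. *Ybx2*, which packages stored mRNA, was found in all 19 embryos at 9.63 ± 4.30 CPM in null and 11.5 ± 5.07 CPM in control embryos (adjusted p = 0.903, edgeR). *Ddx4* (Vasa), a germ cell helicase, was at 6.16 ± 3.67 and 20.9 ± 21.4 CPM (log2 fold change -1.76 ± 0.60, adjusted p = 0.262, edgeR). *Dazl*, a translational activator of germ cells, was at 8.15 ± 7.83 and 8.39 ± 12.8 CPM (adjusted p = 0.998, edgeR).

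*Figla* was found in 4 of 8 null and 6 of 11 control embryos. Counts ran from 0 to 23 (median 3.5) in null and from 0 to 46 (median 6) in control embryos, or 1.66 ± 2.23 and 2.09 ± 3.45 CPM (log2 fold change -0.33 ± 1.26, adjusted p = 0.973, edgeR). Control embryo 2 was the highest at 46, and null embryos 4 and 8 followed at 23 and 22. Without control embryo 2 the log2 fold change turned to 0.54. Both genotypes thus had embryos with and without *Figla* mRNA. *Zp3*, whose promoter carries the E-boxes shown, had counts in the 9 embryos without *Figla* as well.

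*Obox1* had 0 counts in all 8 null embryos, where 3 counts over the group would be 0.0749 CPM. In controls it had 81 counts in embryo 2, 11 in embryo 4, 3 in embryo 10 and 0 in the other 8 embryos. Over the group this is at least 23.4-fold lower in null embryos if 3 counts are allowed for (adjusted p = 0.262, edgeR). Without control embryo 2 it was at least 3.71-fold lower on 14 control counts (adjusted p = 0.316, edgeR), and without control embryos 2 and 4 the 3 control counts left were at the floor. Of all controls, 8 of 11 embryos were at 0 as well. The difference thus lay in 3 control embryos, and control embryo 2 alone held 85.3% of the counts.

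*Obox5* had 432 counts in control embryo 2. The other 10 control embryos had 0 or 1, and null embryos had 1 count in embryo 7 and 0 elsewhere. The ratio of null to control counts per library was 0.0031 (95% exact binomial interval 7.8e-05 to 0.0173, counting error only), with an unadjusted p of 0.00173 and an adjusted p of 0.196 (edgeR). Since 98.4% of the counts were in control embryo 2, no comparison of the genotypes remained without it: *Obox5* and *Mos* then had under 10 counts in every embryo and were not tested.

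Other *Obox* genes were high in the same embryo. Control embryo 2 held 91.5% of all *Obox2* counts (420 counts), 75.3% of *Obox3* (409), 79.7% of *Obox4-ps35* (145) and all 99 counts of *Obox7*. Control embryo 4 held 368 of the 406 counts of *Obox8*, and 121 of *Obox3*. Reads of *Obox1*, *Obox2*, *Obox5* and *Obox7* may be uncertain in their assignment. The promoters of these genes are near-copies, and the annotated span of *Obox1* covers *Obox2* on the same strand. Their transcripts were not aligned, and how many reads they share was not tested. *Obox6* was different, with 228 to 1850 counts and present in all embryos, 89.1 ± 23.9 CPM in null and 187 ± 121 CPM in control embryos (log2 fold change -1.07 ± 0.32, adjusted p = 0.231, edgeR). The 3 control embryos with the highest *Obox6*, 2, 4 and 11, had 203 to 291 CPM of *Krt8* against 221 to 433 in the other 16 embryos, and 216 to 363 CPM of *Krt18* against 342 to 493. The part of these differences in the *Obox* result was not tested.

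**Figure D4:**
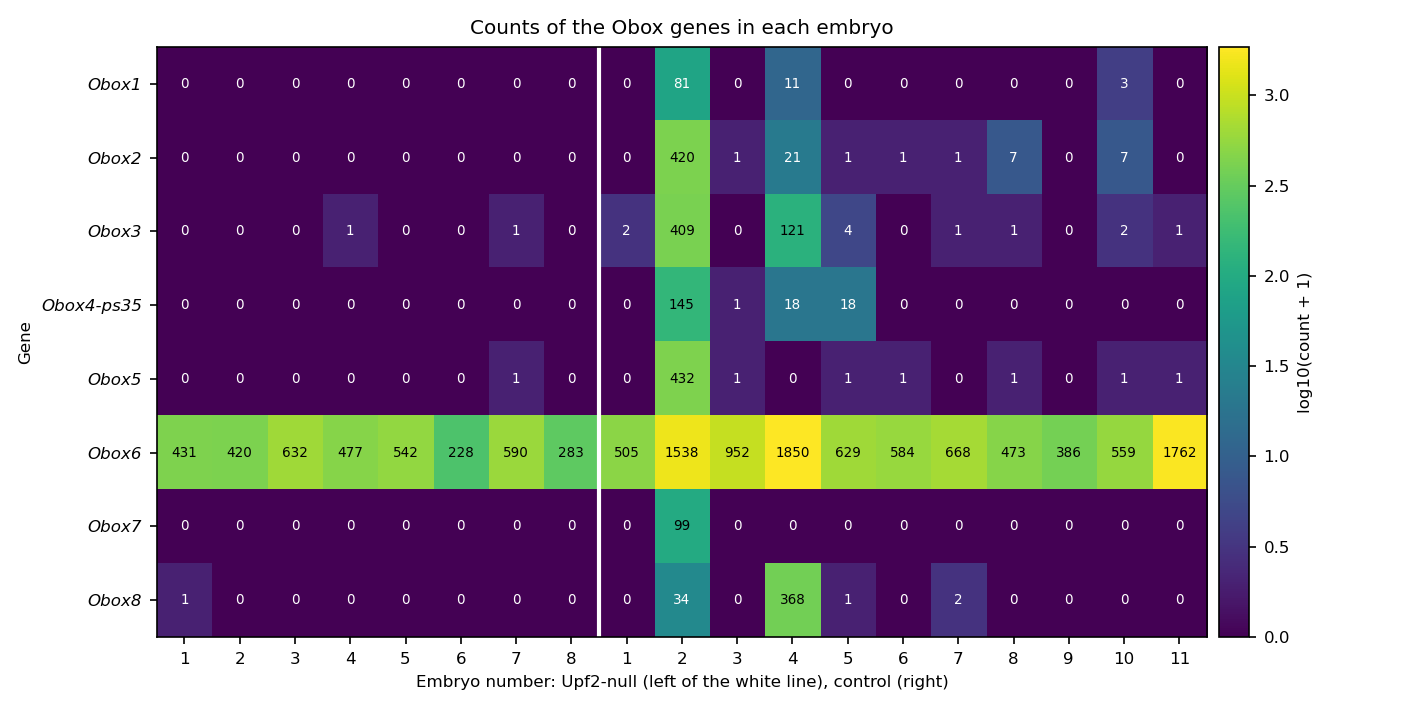
Raw counts of 8 *Obox* genes (rows) in each of 8 *Upf2*-null and 11 control embryos (columns), with colour for log10(count + 1). Control embryo 2 has 34 to 1538 counts of all 8 genes, control embryo 4 has counts of 6 of them, and null embryos hold only single counts besides *Obox6*.

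As a list, the oocyte transcription factors had 12 of 13 tested genes below 0 in null embryos, beside 52.3% of all genes tested, and 10 of them at an unadjusted p under 0.05, beside 7.38% of all genes. None passed the adjusted test by edgeR or limma voom, and 1 did by DESeq2. The median log2 fold change was -6.43, or -4.55 with genes at 0 in all null embryos set to their bound of 3 counts. However, *Obox1*, *Obox2*, *Obox3*, *Obox4-ps35*, *Obox5*, *Obox7*, *Obox8*, *Sohlh1* and *Spz1* had only 0 to 2 counts over all null embryos. They entered the test only through control embryos, so their direction was fixed in advance. The shares and the median are therefore not read as a result about the list. Without control embryos 2 and 4 only 6 genes of the list had enough counts to be tested. Of these 4 were below 0 and 3 at an unadjusted p under 0.05. The 6 still hold *Obox4-ps35* and *Sohlh1*, which reached 10 counts only in control embryos, so these numbers are not read as a result about the list either. *Taf4b*, an oocyte factor of transcription initiation, was at 72.2 ± 35.2 CPM in null and 100.0 ± 25.1 CPM in control embryos (adjusted p = 0.474, edgeR). *Sohlh2*, a helix-loop-helix partner of the early oocyte, was at 64.3 ± 31.8 and 44.0 ± 31.2 CPM (adjusted p = 0.698, edgeR). DESeq2 called *Obox6* lower in null embryos (log2 fold change -1.07, adjusted p = 0.0558).

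The summed level of the 10 genes was 20.1 ± 11.4 CPM (SD, n = 8; 0.531 to 37.6, median 20.2) in null and 42.2 ± 47.8 CPM (SD, n = 11; 3.93 to 171, median 22.7) in control embryos. The ratio of the means was 0.476 (log2 ratio -1.07), and the ratio of the medians 0.888. Null embryo 2 had the least, 3 counts in all, and control embryo 9 the second least with 20 counts, 19 of them *Zp3*. The highest were control embryo 2, at 171 CPM, of which *Zp3* was 14.5%, and control embryo 11, at 78.1 CPM, of which *Zp3* was 84.8%. The log2 ratio was -0.55 without control embryo 2, -0.25 without control embryos 2 and 11, and -0.01 without *Zp3* and control embryo 2 together. The lower mean of the null embryos thus rested on a small number of control embryos, and the score has no test.

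**Figure D5:**
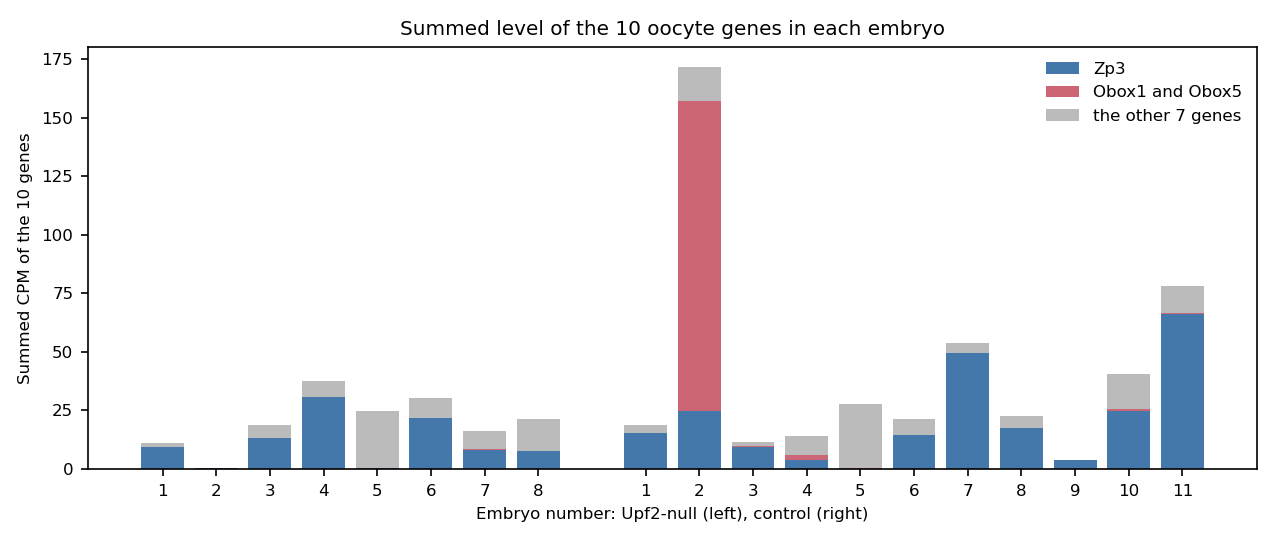
Summed CPM of the 10 oocyte genes in each *Upf2*-null and control embryo as stacked bars for *Zp3*, for *Obox1* with *Obox5*, and for the other 7 genes. Control embryo 2 reaches 171 CPM, mostly *Obox5*, and the other bars lie between 0.531 and 78.1 CPM in overlapping ranges.

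The wider lists held 121 genes outside the 10, 91 of them oocyte genes or factors that clear maternal mRNA and 30 markers of cumulus and granulosa cells or of the blastocyst. Of the 121 genes 91 were tested and none past the adjusted test by edgeR. At an unadjusted p under 0.05, 20 were lower in null embryos and 2 higher, where 7.38% and 5.15% of all genes were. Apart from *Obox6*, the *Obox* genes among the 20 reached 10 counts only in control embryos. So did *Oosp1*, *Sohlh1*, *Spz1*, *Nlrp9c*, *Omt2b*, *Gpr3*, *Kit* and *Wee2*. The 2 higher, *Tcl1b1* and *Astl*, did so only in null embryos. The direction of all these genes was thus fixed in advance, and neither these numbers nor the next are read as a result about the lists. Without control embryos 2 and 4 the numbers were 12 and 4. In that fit 1675 of 16683 genes had a p under 0.05 in either direction. With all embryos 73 of the oocyte and clearance genes alone were tested, 19 lower and 2 higher at an unadjusted p under 0.05. DESeq2 called 2, *Obox6* and the epiblast factor *Nanog*, both lower, and limma voom called 1, *Cnot9*, higher (log2 fold change 0.31, adjusted p = 0.0980). *Nanog* is no oocyte gene and stands among the blastocyst markers (175 ± 32.2 CPM in null and 243 ± 45.9 CPM in control embryos, adjusted p = 0.150, edgeR).

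Most factors of maternal mRNA clearance were found in every embryo (19 of 22 matched genes). *Btg4* and *Pabpn1l* had only 1 and 4 counts over all embryos and were not tested. Of 22 matched genes 20 were tested, 6 above 0 and 14 below, with a median log2 fold change of -0.08. None passed by edgeR or DESeq2, and *Cnot9* alone passed by limma voom (higher, adjusted p = 0.0980). The CCR4-NOT subunits *Cnot8*, *Cnot9* and *Cnot2*, parts of the main deadenylase, had the highest levels per kilobase. They stood at 264 ± 19.9, 343 ± 20.0 and 255 ± 37.4 CPM in null and at 296 ± 33.0, 303 ± 61.2 and 260 ± 35.0 CPM in control embryos (adjusted p = 0.320, 0.533 and 0.965, edgeR).

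Of 38 other oocyte transcripts 12 had a count in every embryo and 5 in none. The 12 include *Dppa3*, *Ccnb1*, *Ccnb2*, *Pou5f1*, *Trim28* and *Dnmt1*, which the embryo also transcribes. Of 28 tested none passed by edgeR, DESeq2 or limma voom, with 10 above 0 and 18 below and a median of -0.10. Some of the 28, *Wee2* and *Astl* among them, entered the test only through embryos of a single genotype. *Dppa3* (Stella), a maternal protector of DNA methylation that the embryo also expresses, was at 287 ± 30.2 CPM in null and 291 ± 37.6 CPM in control embryos (adjusted p = 0.974, edgeR). The cyclins *Ccnb1* and *Ccnb2* were at 349 ± 39.5 and 308 ± 54.2 CPM in null and at 368 ± 46.0 and 283 ± 39.0 CPM in control embryos (adjusted p = 0.833 and 0.755, edgeR). Counts of *Dppa3* ran only from 1359 to 1498 and those of *Ccnb1* from 1578 to 1943, a narrower span than that of the library totals. With duplicates removed, like levels of such genes in both genotypes are not read as the absence of a difference.

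The genes whose levels followed the summed level of the 10 most closely over the 19 embryos, among 14020 other genes with a mean of at least 1 CPM, were *Platr17* (Pearson r = 0.796), *Chn1* (0.766), *Calb2* (0.765), *Fkbp11* (0.764) and *Etl4* (0.752). These values describe embryos that share library totals and the high level of control embryo 2, and they carry no test.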

How the data were processed

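RNA of 19 single E3.25 blastocysts was sequenced, 1 library each. The authors made cDNA with the SMARTer Ultra Low Input v4 kit and libraries with Nextera XT, used STAR 2.5.2a on GRCm38, took out duplicate reads (SAMtools) and ran featureCounts for gene counts. The deposited counts are raw. In the deposited scaled signal each embryo has its counts multiplied by a constant of its own (100% of values came out whole within 0.01 reads). The deposited merged transcript models give positions without values per embryo. Whether the counting used strand is not given in the sources used here.

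A gene entered the test if any 1 embryo had 10 counts of it (17137 genes). A gene that reached 10 counts only in embryos of a single genotype had its direction largely set by this rule. The test was the quasi-likelihood test of edgeR 4.0.16 with TMM factors and robust dispersions and no covariate, Benjamini-Hochberg adjusted over all genes, at 0.1. The standard error is the fold change over the root of F. CPM include the TMM factors (prior count 2 on the log2 scale). DESeq2 1.42.0 and limma 3.58.1 (voom with quality weights) were alternatives. DESeq2 ran with default settings, which replace outlying counts in groups of this size before the fit. The part of this in its differences from edgeR was not tested. Ratios of counts have 95% exact binomial intervals, which cover counting error only, as do floors of 3 counts. Among 134 listed symbols 131 matched a gene. The numbers of the embryos pair no samples. Nothing in the labels gives a litter or batch, so p-values measure the spread between single embryos.

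The 10 genes and the wider lists were chosen with earlier results of these data known. Named were the 10 genes, *Upf2*, in each list the genes past the threshold and the 3 with the highest CPM per kb, and the 5 genes most like the summed level. Other names (other *Obox* genes, *Sohlh1*, *Spz1*, *Sox2*, *Klf4*, *Pou5f1*, *Trim28*, *Dnmt1*, *Btg4*, *Pabpn1l*, further subunits of the complex and the markers at 0) were chosen after their values were seen. Also chosen then were *Oosp3*, *Nlrp9c*, *Omt2b*, *Gpr3*, *Kit*, *Wee2*, *Tcl1b1*, *Astl*, *Eomes*, *Gata3*, *Cdx2* and *Gata6*. The same holds for leaving out control embryos 2, 4 and 11 or 2 and 11, and for leaving out *Zp3* with control embryo 2. It also holds for the *Obox1* bound without control embryos, embryos 1 to 8 without a block, and the reads recovered from the scaled signal. R 4.3.3, Python 3.11.15, pandas 2.3.3 and scipy 1.17.1 were used.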

Additional observations from a re-analysis of the deposited data

Results flagged for a closer look

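In the 8 *Upf2*-null embryos a single embryo lay far above the rest for 5 of the 10 oocyte genes, by a gap of more than 0.526 of the range of the group. For normally distributed values chance marks about 1 in 20 groups in this way. That rate does not hold for counts that are mostly 0, where a gene with a count in a single embryo always meets the limit, as *Zar1*, *Mos* and *Obox5* did. *Gdf9* was at 11.0 CPM in null embryo 5, with the next at 2.09 CPM. *Nlrp5* was at 8.32 CPM in null embryo 8, with the next at 1.74 CPM. *Zar1* was at 1.99 CPM in null embryo 7 with 0 in the other 7. *Mos* at 0.217 CPM in null embryo 4 and *Obox5* at 0.199 CPM in null embryo 7 were each a single count with 0 in the other 7. The control group of 11 was not examined by this rule.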

How the results depend on the processing

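None of the 10 genes passed the test in any of 33 alternatives, and in 31 of them none of the wider lists did. The exceptions were DESeq2 with 2 calls and limma voom with 1. Of 298 fold changes of the 10 genes under alternatives 15 turned their sign, none of them called. *Gdf9* was at -1.82 by DESeq2, -0.41 by voom, -0.13 in the scaled signal, -0.13 without control embryos 2, 4 and 11, and -1.0035 with the replicate block. *Figla* was at 0.39 without control embryos 2 and 4, 0.56 without 2, 4 and 11, and 0.40 with the replicate block, *Zar1* at -0.61 with the replicate block, and *Nlrp5* at 1.11 without control embryo 5 and null embryo 2.

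With 1 embryo left out at a time the log2 fold change ran from -0.07 (-0.0654, without null embryo 7) to 0.98 for *Zp2*, -1.27 to -0.52 for *Zp3*, -1.82 to 1.21 for *Gdf9*, 1.46 to 4.00 for *Bmp15*, -3.54 to 0.93 for *Nlrp5*, 0.65 to 2.54 for *Zar1*, -0.85 to 0.54 for *Figla* and -6.57 to -3.65 (without control embryo 2) for *Obox1*, and the log2 ratio of summed levels from -1.26 to -0.55. Adjusted p over alternatives ran from 0.174 for *Obox5* to 1.00. With the replicate block over embryos 1 to 8 of each genotype 0 of the 10 genes and 0 of all genes passed, against 24 of all genes without it. Same-numbered embryos did not deviate together: of 8 pairs 0 had a correlation over 0.1 (-0.137 to 0.0687) and 1 null embryo correlated best with its own number. Apart from the block and single embryos left out (14 to 43), calls over all genes ran from 11 at an adjusted p under 0.05 and 33 in the reported test to 176 by DESeq2 and 112 by voom. With edgeR's expression filter only *Zp3* of the 10 was tested. *Mos* and *Obox5* were not analysed in the scaled signal. Scaling to ERCC spike-ins was not run. Most values of the 10 genes other than *Zp3* are 0 to 10 counts.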
